A study of Mus musculus with 41 samples.

Results

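RNA from microglia that had been cultured for 7 d was compared with RNA from microglia taken directly after sorting (ex vivo). The comparison rests on 10 of the study's 41 libraries, 5 per group, chosen by their titles, and on every gene in the count table. Of 24537 gene symbols, 13840 passed the filter on low counts and were tested. The cells of both groups came from C57Bl6 mice, with no altered gene named in the labels, and were sorted from perfused whole brain as live CD11b+ CD45Low single cells. The ex vivo cells received no culture and no ligand. The cultured cells were plated in DMEM/F12 with 5% fetal bovine serum, stayed in the same medium throughout, and were given IL-34 daily, which acts on the CSF1 receptor. They received no added TGFβ. Each RNA library was made from 100000 to 150000 cells. Because a brain yields about 250000 microglia and the labels do not say which libraries came from separate animals, the p-values describe library-to-library spread, which may be technical.

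Microglia are the macrophages that live in the brain. Signals from the surrounding tissue, TGFβ among them, maintain a set of genes that other macrophages express little, and these genes are known to decline when the cells are removed from the brain. Macrophages in a dish with serum attach and spread, take up lipid and debris, digest it in acidic lysosomes, and can divide when the CSF1 receptor is stimulated. RNA here comes from a whole population of cells, so fewer cells of a type and less RNA per cell cannot be told apart.

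The 10 libraries held 13.3 to 21.9 M counts ex vivo (M, mega) and 24.2 to 28.02 M at 7 d. Libraries correlated with each other at r = 0.967 to 0.989 within the ex vivo group, 0.964 to 0.995 within the 7 d group and 0.812 to 0.872 between the groups, across genes on a log2 scale. The 7 d replicates 2 and 3 formed a pair (r = 0.995), and their correlations to replicates 1, 4 and 5 were 0.964 to 0.983. Sums of the 8 pan-macrophage markers were 14660 to 17333 CPM (counts scaled to sequencing depth) ex vivo and 7715 to 8933 at 7 d, so macrophages were present in both groups. Sums of the 8 microglia markers were 29196 to 35424 CPM ex vivo and 5212 to 8572 at 7 d. Markers of other cell types were present in both groups and uneven between libraries. The 8 neutrophil markers summed to 174 and 155 CPM in ex vivo replicates 2 and 3, to 3.22 to 38.5 in the other ex vivo libraries and to 0.356 to 2.04 at 7 d. The 9 astrocyte markers summed to 167 to 368 CPM ex vivo and 9.39 to 12.6 at 7 d, where Gfap was at 0 in all 5 libraries. The 7 border macrophage markers were higher in sum at 7 d (78.1 to 181 CPM, against 9.03 to 106 ex vivo), and the 5 oligodendrocyte precursor markers summed to 18.9 and 8.66 CPM in 7 d replicates 2 and 3, to 0.982 to 2.98 in the other 7 d libraries and to 1.50 to 3.59 ex vivo. Single markers did not all follow these last 2 sums. Of the 7 border macrophage markers 2 were called higher, 2 lower and 3 not called (median log2 -0.35). Of the 2 oligodendrocyte precursor markers tested 1 was higher and 1 lower, and Pdgfra was at 0 in all 5 libraries at 7 d. Among all genes tested 34.8% were higher and 35.7% lower. The part of such other cells in the results was not tested.

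Promoters show where RNA and chromatin data of the same conditions meet. The sequences given here carry the results described further on: 1 promoter with open and acetylated chromatin at 7 d only, 1 ex vivo only, and 3 that hold a motif known from a gene group that rose. Each is the 200 bases that end just before the annotated start, written 5′ to 3′ on the gene's strand, from RefSeq on GRCm38.p6, the assembly also called mm10, on which the study's peaks lie. Capitals mark a match to the motif named, on either strand. For the motif TGANTCA the base share was 6.48% of the tested genes matched to a promoter (10772 genes), 6.75% of those called higher, 6.88% of those called lower, and 8.97% of all promoters in the table, each counted on either strand in the 300-base window.

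Emp1, a membrane protein of the PMP22 family, with 2 matches to TGANTCA, the AP-1 motif, in 1 of its 2 promoters in the table, at chr6:135362731-135362930 on the plus strand:
Emp1: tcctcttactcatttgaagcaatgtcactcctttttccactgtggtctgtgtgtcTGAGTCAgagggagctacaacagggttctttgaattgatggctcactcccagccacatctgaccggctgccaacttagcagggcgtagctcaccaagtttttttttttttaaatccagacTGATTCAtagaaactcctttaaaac
Crybb1, a crystallin that is also a microglial gene, with 0 matches to TGANTCA, at chr5:112255620-112255819 on the plus strand:
Crybb1: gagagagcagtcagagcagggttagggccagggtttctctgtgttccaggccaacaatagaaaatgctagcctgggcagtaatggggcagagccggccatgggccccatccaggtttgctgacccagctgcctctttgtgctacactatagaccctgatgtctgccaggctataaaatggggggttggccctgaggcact
Oas3, an interferon-induced oligoadenylate synthetase, with 2 overlapping matches to TTCNNTTTC, the interferon-response element, at chr5:120777660-120777859 on the minus strand:
Oas3: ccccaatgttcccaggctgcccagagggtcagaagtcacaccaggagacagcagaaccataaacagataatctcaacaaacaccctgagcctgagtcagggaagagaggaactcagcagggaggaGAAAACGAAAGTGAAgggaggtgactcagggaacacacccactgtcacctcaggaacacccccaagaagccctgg
Lamp1, the lysosomal membrane glycoprotein, with 4 matches to CACGTG, the E-box of the kind read by MITF and TFEB, at chr8:13158961-13159160 on the plus strand:
Lamp1: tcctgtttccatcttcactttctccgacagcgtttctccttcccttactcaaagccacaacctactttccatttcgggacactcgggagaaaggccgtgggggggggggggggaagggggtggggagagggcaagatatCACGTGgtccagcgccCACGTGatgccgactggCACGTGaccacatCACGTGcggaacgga
Top2a, the topoisomerase of dividing cells, with 2 matches to TTTGAA, the core of the cell-cycle homology region, at chr11:99024190-99024389 on the minus strand:
Top2a: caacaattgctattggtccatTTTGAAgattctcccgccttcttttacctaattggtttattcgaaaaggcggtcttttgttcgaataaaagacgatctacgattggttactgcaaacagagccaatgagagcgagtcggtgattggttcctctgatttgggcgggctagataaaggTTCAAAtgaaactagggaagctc

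Expression differed over most of the genes tested. By edgeR's quasi-likelihood test at an adjusted p under 0.05, 4821 genes were higher at 7 d (34.8% of those tested) and 4943 were lower (35.7%), so 70.5% of all genes were called. At least a 2-fold change was seen in 2749 of the genes higher (19.9%) and 3132 of the genes lower (22.6%). In 26.1% of genes all 5 libraries at 7 d lay above all 5 ex vivo, and in another 26.1% all lay below. With deposited TPM in place of counts, the split moved to 3905 higher and 5736 lower, and the median log2 fold change of all genes to -0.15 from -0.02. Any count for a group of genes has to be read against these shares.

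**Figure D1:**
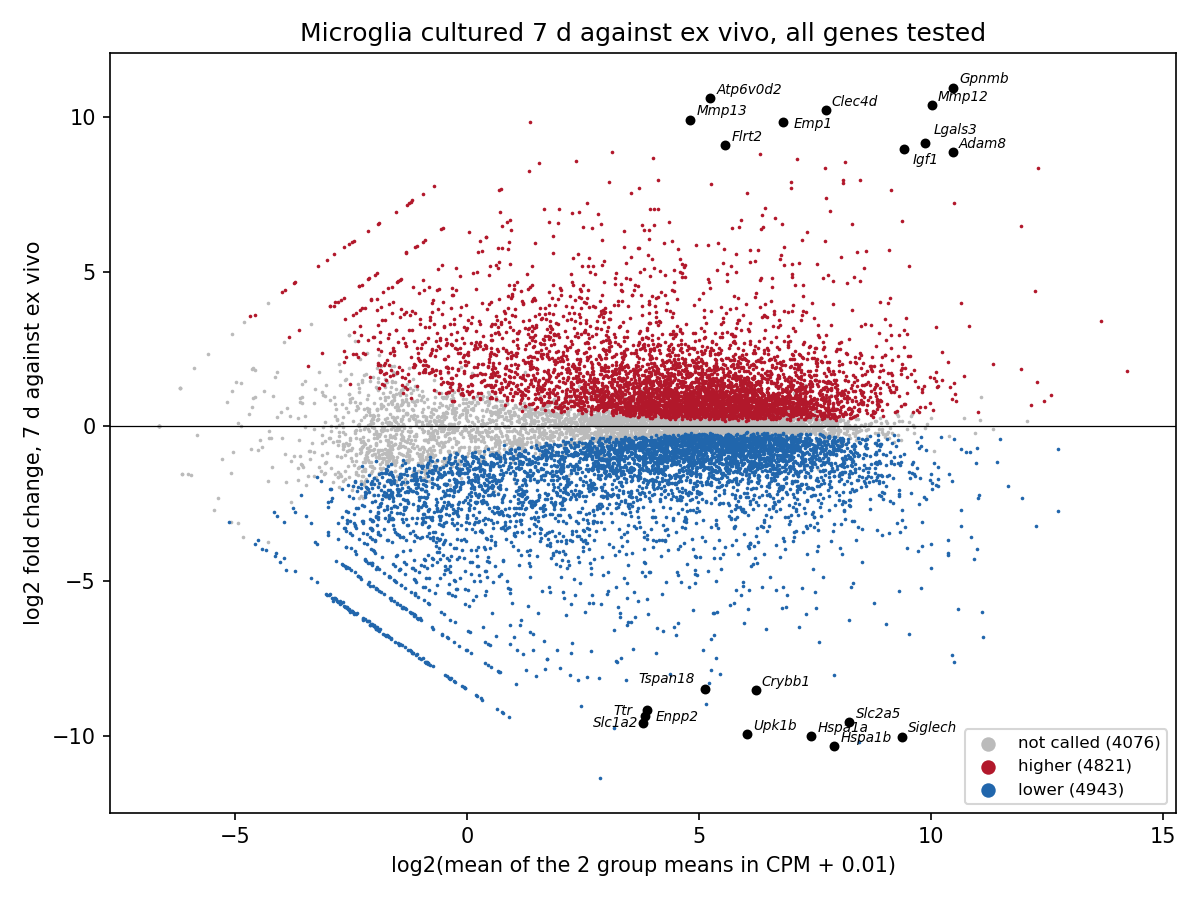
Each point is 1 of the 13840 genes tested. The x axis is log2 of the mean of both group means in CPM plus 0.01, and the y axis is the log2 fold change at 7 d against ex vivo. Red and blue mark the 4821 genes called higher and the 4943 called lower, and black points name the 10 largest rises and falls chosen by the rule for named genes. The named rises lie between 8.86 and 10.96 and the named falls between -8.49 and -10.33.

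The 10 largest rises included 3 proteases, 2 lectins, a growth factor and a proton-pump subunit. Gpnmb, a glycoprotein of lysosomes and melanosomes, was counted at 1.25, 3.38, 1.73, 0.358 and 0.445 CPM ex vivo and at 3421, 1965, 2612, 2624 and 3771 CPM at 7 d, a log2 fold change of 10.96 ± 0.56 (SE, adjusted p = 1.24e-10, edgeR). Every cultured library was far above every ex vivo library for Gpnmb; the rule that chose these 10 rises and 10 falls admits only genes whose groups do not overlap. Mmp12, the macrophage elastase, was at 0.0717 to 2.70 CPM ex vivo and 1191 to 2730 at 7 d (log2 10.38 ± 0.56), and Mmp13, a collagenase, rose by log2 9.92 ± 0.46. Adam8, a membrane metalloprotease of leukocytes, rose from 6.04 ± 1.62 to 2838 ± 521 CPM (SD, n = 5). Lgals3, the glycan-binding lectin galectin-3, rose from 3.20 ± 1.77 to 1876 ± 263 CPM. Igf1, a growth factor, was at 0.778 to 5.49 CPM ex vivo and 962 to 1900 at 7 d. Atp6v0d2, a proton-pump subunit of osteoclasts and some macrophages (log2 10.62 ± 0.60), Clec4d, a C-type lectin receptor (10.22 ± 0.62), Emp1 (9.85 ± 0.45) and Flrt2, an adhesion protein (9.10 ± 0.55), completed the group.

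The largest falls were of 3 kinds. Siglech, a sialic acid-binding lectin that marks microglia, was counted at 1247, 1510, 1372, 1284 and 1247 CPM ex vivo and at 1.95, 1.47, 1.75, 0.317 and 0.811 CPM at 7 d, a log2 change of -10.03 ± 0.41 (adjusted p = 8.06e-12, edgeR). The ex vivo libraries were closely alike and the cultured ones were near 0 for Siglech. Slc2a5, a fructose transporter (-9.55 ± 0.50), Upk1b, a uroplakin (-9.94 ± 0.38), Crybb1 (-8.52 ± 0.59) and Tspan18, a tetraspanin (-8.49 ± 0.26), fell to a similar extent. The inducible heat-shock proteins Hspa1a and Hspa1b were uneven ex vivo. Hspa1b was at 985, 227, 27.7, 495 and 692 CPM ex vivo and at 0.0427 to 0.884 at 7 d, and Hspa1a was at 714, 73.2, 5.20, 385 and 543 CPM against 0.206 to 0.436. Replicate 3 was the lowest of the ex vivo libraries for both. The third kind was Ttr and Enpp2, genes of the choroid plexus, and Slc1a2, the glutamate transporter of astrocytes. Ttr was at 0.742, 0.813, 96.2, 32.5 and 7.78 CPM ex vivo and at most 0.103 at 7 d. Ttr is itself one of the 6 choroid plexus markers, whose sum was 0.813 to 112 CPM ex vivo and 0.158 to 0.855 at 7 d. The part of such cells in these 3 falls was not tested.

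All 24 genes of the homeostatic microglia list were lower at 7 d, where 35.7% of all genes were lower. Their median log2 was -3.89, beside -0.02 over all genes. In 23 of 24 no cultured library reached any ex vivo one, beside 26.1% of all genes. Tmem119, a surface protein specific to microglia, was at 2736, 2466, 3140, 2419 and 3306 CPM ex vivo and at 27.4, 14.2, 17.5, 9.62 and 14.6 CPM at 7 d (log2 -7.40 ± 0.34, adjusted p = 1.81e-11). The size of the fall spread widely within the list. Fcrls, an Fc receptor-like scavenger protein, fell only from 2160 ± 433 to 640 ± 230 CPM (log2 -1.75 ± 0.30). Rgs10, a regulator of G-protein signalling, differed least (-0.48 ± 0.21, adjusted p = 0.0491), with overlapping libraries, and it lost its call without ex vivo replicates 1, 2 or 3 or 7 d replicates 1, 4 or 5 (log2 -0.36 to -0.47).

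The genes of the homeostatic list were nevertheless higher at 7 d than at 24 h. This comparison used the same model and 3 libraries of microglia cultured for 24 h (1 labelled 22 h), and shares the 7 d libraries with the comparison above. Over all genes 3769 were higher at 7 d than at 24 h (27.2%) and 2985 lower (21.6%), which is 48.8% called. With total-count scaling the split was 3189 higher and 3559 lower, and with TPM 2733 and 3957. Of the homeostatic genes 16 of 24 were higher and 1 lower, with a median log2 of 1.51. Fcrls stood at 10.4 ± 4.77 CPM at 24 h (n = 3) and 640 ± 230 at 7 d (log2 5.94 ± 0.46, adjusted p = 6.14e-08) and Tmem119 at 2.45 ± 1.04 against 16.7 ± 6.61 (2.76 ± 0.36). Siglech, by contrast, stood at 1.34 ± 0.555 CPM at 24 h and 1.26 ± 0.680 at 7 d (-0.07 ± 0.42, adjusted p = 0.900). Among the 10 largest rises, Mmp12 and Flrt2 were higher at 24 h than at 7 d. Mmp12 stood at 7012 ± 876 CPM at 24 h (7 d against 24 h -1.76 ± 0.41) and Flrt2 at 261 ± 37.8 (-1.47 ± 0.36). Higher at 7 d than at 24 h were Gpnmb (log2 6.22), Atp6v0d2 (4.14), Igf1 (3.24), Mmp13 (2.57) and Clec4d (2.09). Emp1, Lgals3 and Adam8 were not called between these times.

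**Figure D2:**
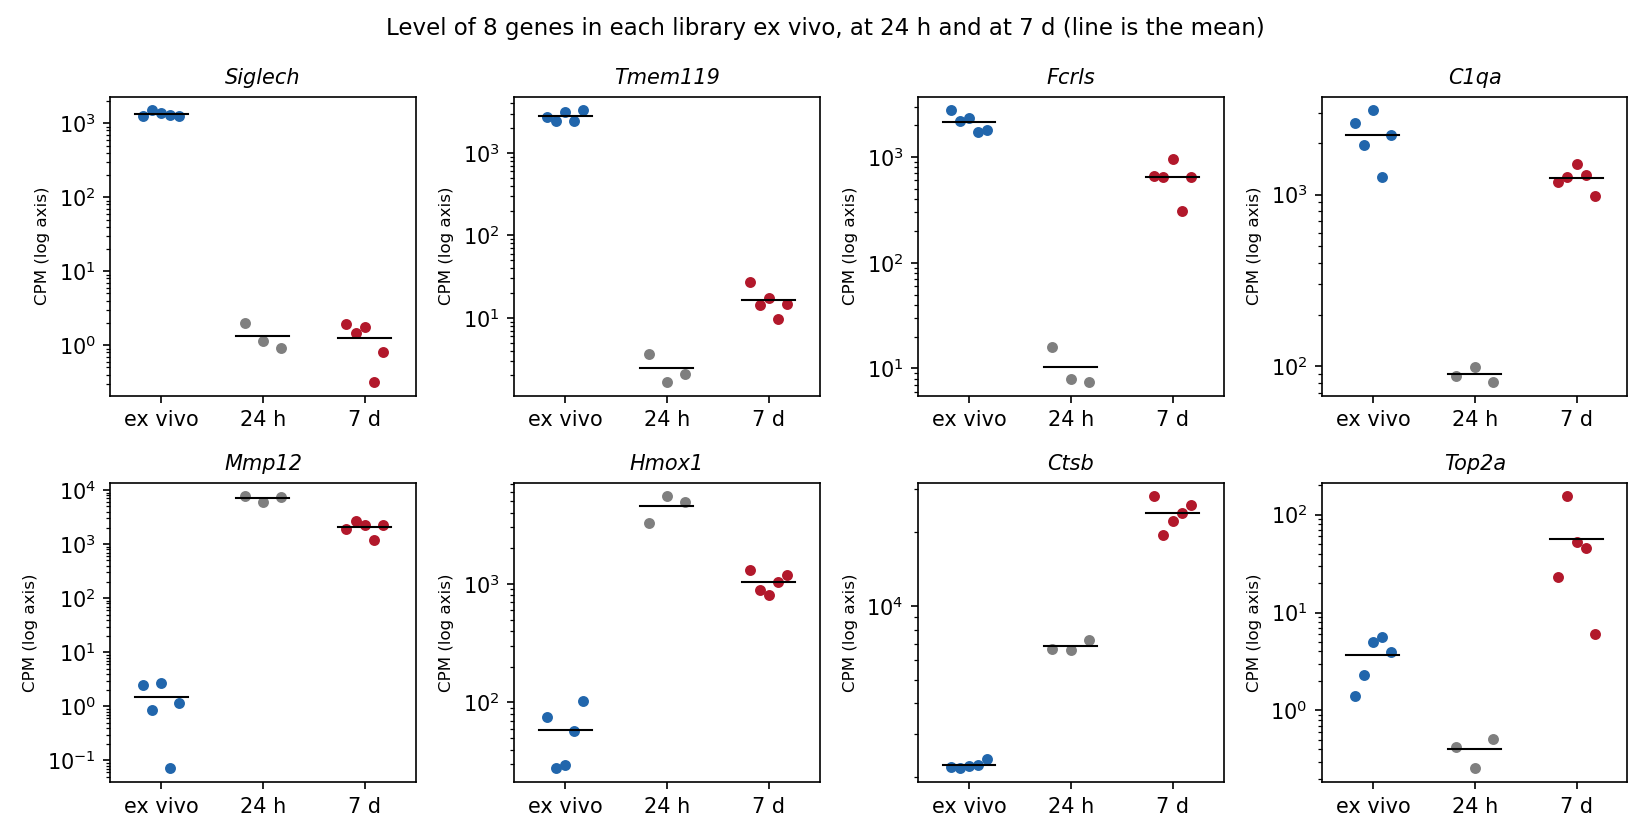
Level in CPM on a log axis of 8 genes in each of 5 ex vivo, 3 24 h and 5 7 d libraries; points are libraries and lines are group means. Siglech is near 1 CPM at both culture times, while Tmem119, Fcrls and C1qa are lower at 24 h than at 7 d, and Mmp12 and Hmox1 are higher at 24 h than at 7 d.

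**Figure D3:**
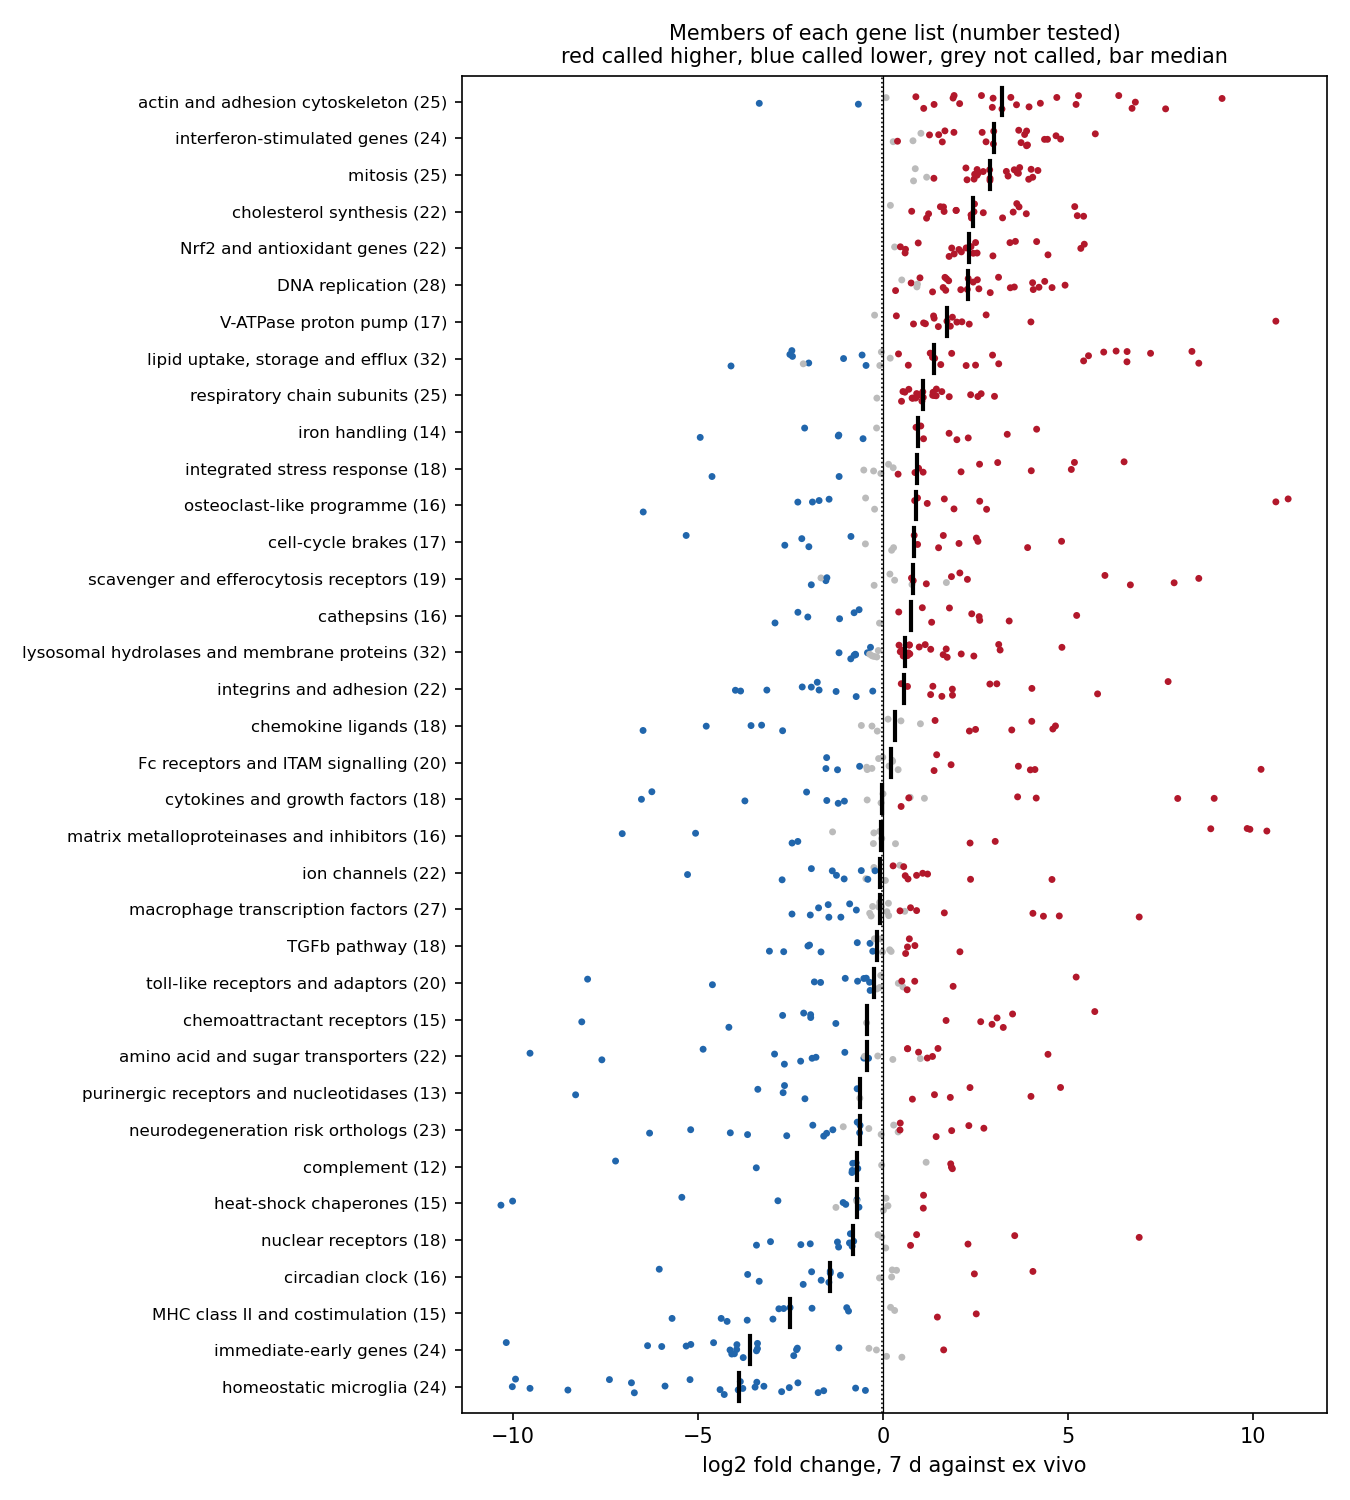
Log2 fold change at 7 d against ex vivo of the tested members of 36 gene lists, ordered by median; each point is a gene, red if called higher, blue if called lower and grey if not called, the black bar is the list's median and the dotted line the median of all genes. The homeostatic list is entirely blue (24 of 24), and in the mitosis, DNA replication, interferon, cholesterol and Nrf2 lists no point is blue.

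Surface receptors moved in both directions, as did all genes tested (34.8% higher, 35.7% lower). Of 13 tested purinergic receptors and nucleotidases, which sense and degrade extracellular nucleotides, 6 were higher and 6 lower. P2ry6, the UDP receptor linked to phagocytosis, fell modestly (-0.70 ± 0.22), as did the ATP-degrading ectoenzyme Entpd1 (-2.70 ± 0.34) and the ATP-gated channel P2rx7 (-2.11 ± 0.11) by more. Of 15 chemoattractant receptors 7 were higher and 7 lower. The complement peptide receptors C5ar1 (130 ± 15.9 to 1007 ± 141 CPM) and C3ar1 (345 ± 64.7 to 3282 ± 766 CPM) rose in every library. Ccr1 was not called (-0.44 ± 0.42).

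Pattern-recognition receptors moved in both directions, beside 34.8% of all genes higher and 35.7% lower. Of 20 toll-like receptors and adaptors 5 were higher and 10 lower (median log2 -0.26). Tlr7, a sensor of single-stranded RNA, Tlr2, a sensor of lipoproteins, and Tlr4, the endotoxin receptor, were not called (0.41 ± 0.22, -0.16 ± 0.25 and -0.09 ± 0.18), and Tlr7 was called higher without ex vivo replicate 2 (0.63) or 7 d replicate 2 (0.54). Tlr8, another RNA sensor, was at 0.371, 2.50, 3.03, 0.287 and 0.334 CPM ex vivo and 64.2, 34.6, 46.4, 41.0 and 66.1 CPM at 7 d. Tlr9, the sensor of unmethylated CpG DNA, went the other way, from 337 ± 61.5 to 13.8 ± 3.97 CPM, and Tlr12 from 87.0 ± 16.2 to 0.326 ± 0.245 CPM. No library of 1 group overlapped the other for these last 3 genes.

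Secreted signals moved in both directions, beside 34.8% of all genes higher and 35.7% lower. Of 18 cytokines and growth factors tested 6 were higher and 7 lower. Spp1, which encodes osteopontin, was at 3.16, 3.63, 3.15, 0.931 and 3.11 CPM ex vivo and 557, 1216, 1110, 516 and 157 CPM at 7 d (log2 7.97 ± 0.64, adjusted p = 2.87e-08). The cultured libraries differed among themselves, with replicates 2 and 3 highest and replicate 5 lowest, but none came near the ex vivo range. Il1a, the alarm cytokine IL-1α, was at 90.1 to 291 CPM ex vivo and 1.27 to 2.77 at 7 d (-6.53 ± 0.42). Tnf was at 40.3, 9.44, 4.11, 130 and 63.9 CPM ex vivo and at 31.8 to 74.3 at 7 d, and was not called (-0.05 ± 0.64). Csf1 was not called over all libraries (-0.43 ± 0.48) but fell without 7 d replicate 3 (-1.02). Of 18 chemokine ligands 7 were higher and 5 lower. Ccl6 (1.41 ± 0.32) and Cxcl16 (2.34 ± 0.20) rose, while Ccl3 and Ccl4 were not called (0.48 ± 0.55 and 1.01 ± 0.65) and were uneven ex vivo, Ccl3 at 551, 109, 20.7, 445 and 336 CPM.

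Most genes of antigen presentation were lower, beside 34.8% of all genes higher and 35.7% lower. Of 15 genes for MHC class II and costimulation 11 were lower (median log2 -2.51) and 2 higher. Cd74, the invariant chain of MHC class II, was at 31.3, 34.6, 128, 21.1 and 18.6 CPM ex vivo and 2.25, 10.1, 13.1, 2.61 and 1.54 CPM at 7 d (-2.98 ± 0.64, adjusted p = 6.94e-04). Ex vivo replicate 3, with the second highest neutrophil sum and the highest choroid plexus sum, was also highest here. Its border macrophage sum (106 CPM) was the highest of the ex vivo libraries too. So were its B cell sum and its dendritic and mast cell sum, by smaller margins. The part of such cells in the level of Cd74 was not tested. The 11 lower calls were the same in number without replicates 2 and 3 of the ex vivo group, with a median of -1.70. Cd86, a costimulatory ligand of T cells, fell from 226 ± 46.8 to 59.7 ± 30.4 CPM. The 2 that rose act as inhibitory or adhesive ligands: Cd274, the checkpoint ligand PD-L1, rose from 17.1 ± 3.23 to 97.8 ± 30.4 CPM, and Cd48, a ligand of CD244, from 49.8 ± 6.23 to 138 ± 11.8 CPM. Cd40 and Cd83 were not called (0.31 ± 0.79 and 0.20 ± 0.21).

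Complement and Fc receptor genes moved in both directions, beside 34.8% of all genes higher and 35.7% lower. Of 12 complement genes 7 were lower and 3 higher. C1qa, a chain of C1q, fell from 2222 ± 692 to 1248 ± 195 CPM (-0.83 ± 0.20). Cfp, which encodes properdin (1.83 ± 0.31), C2 (1.85 ± 0.60) and the integrin chain Itgax of complement receptor 4 (1.88 ± 0.38) rose, C2 only while 7 d replicates 2 and 3 were included (0.82 without both, adjusted p = 0.249, edgeR). At 24 h C1qa was far lower still, at 89.8 ± 9.46 CPM. Of 20 Fc receptor and ITAM signalling genes 7 were higher, among them Clec4d and Clec7a, the β-glucan receptor dectin-1 (20.5 ± 6.86 to 325 ± 43.5 CPM). The 4 that fell were the high-affinity IgG receptor Fcgr1 (-1.23 ± 0.26), the phosphatase SHIP1 gene Inpp5d (-1.53 ± 0.14), the phospholipase Plcg2 (-0.63 ± 0.11) and the adaptor Card9 (-1.54 ± 0.13). Fcgr3 and the kinase Syk were not called (-0.43 ± 0.19 and -0.44 ± 0.20), and both were called lower under RLE, upper-quartile and total-count scaling.

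More scavenger receptors were higher than lower, beside 34.8% of all genes higher and 35.7% lower. Msr1, scavenger receptor A, was at 1.95, 3.50, 3.83, 1.29 and 0.945 CPM ex vivo and 554, 630, 479, 644 and 447 CPM at 7 d, a 234-fold rise (log2 7.87 ± 0.41, adjusted p = 1.55e-10). Cd36, a receptor for fatty acids and oxidised lipoproteins, was at 0.0717 to 3.35 CPM ex vivo and 424 to 835 at 7 d, a 372-fold rise. In the whole list of 19 scavenger and efferocytosis receptors 10 were higher and 3 lower. The 3 that fell were Mertk, the receptor kinase for apoptotic cells (1197 ± 162 to 410 ± 92.1 CPM), Itgb5, an integrin chain for the same cargo (1805 ± 258 to 471 ± 81.7 CPM), and Olr1, a lectin-like receptor for oxidised lipoproteins that was low in both groups (1.18 ± 0.664 and 0.402 ± 0.200 CPM). Olr1 lost its call with TPM and a pseudocount of 1 (-0.54) and without ex vivo replicates 2 and 3 (-0.89). Gas6, the bridging ligand of Mertk, rose from 214 ± 37.2 to 1041 ± 28.9 CPM. Mrc1, the mannose receptor, and Marco were not called over all libraries. Mrc1 was called higher without ex vivo replicate 3 (1.16). Marco was at 2.50 CPM in ex vivo replicate 2 and at most 0.0556 in the other ex vivo libraries, and was called higher without replicate 2 (6.47, adjusted p = 5.85e-05, edgeR).

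More genes for lipid handling were higher than lower, beside 34.8% of all genes higher and 35.7% lower. Of 32 tested genes for lipid uptake, storage and efflux 20 were higher and 8 lower (median log2 1.37). Lpl, lipoprotein lipase, was at 38.01, 40.1, 46.5, 18.5 and 12.6 CPM ex vivo and 9331, 9933, 10567, 10717 and 10539 CPM at 7 d, a 327-fold rise (8.35 ± 0.36, adjusted p = 7.00e-12). The 5 cultured libraries agreed closely. Fabp5, a fatty acid-binding protein, rose from 0.235 ± 0.179 to 20.7 ± 6.46 CPM, and Plin2, the coat protein of lipid droplets, from 19.02 ± 3.91 to 2872 ± 232 CPM. The cholesterol exporter Abca1 fell from 993 ± 94.9 to 180 ± 92.7 CPM (-2.47 ± 0.39) and the exporter Abcg1 from 304 ± 37.3 to 17.6 ± 3.90 CPM (-4.11 ± 0.18). Mylip, a ubiquitin ligase gene, fell from 478 ± 68.0 to 87.5 ± 20.4 CPM. Pnpla2, a triglyceride lipase, and Scd1, a desaturase, were not called (-0.04 ± 0.20 and -2.16 ± 0.99), and Scd1 was called lower without ex vivo replicate 1 (-2.49) or 7 d replicate 1 (-2.85).

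Nearly all genes of cholesterol synthesis rose, beside 34.8% of all genes higher and 35.7% lower. Of 22 genes 21 were higher and none lower (median log2 2.43), and for those 21 no cultured library fell into the ex vivo range, beside 26.1% of all genes. Sqle, squalene epoxidase, was at 2.88, 3.00, 3.59, 2.94 and 1.28 CPM ex vivo and 135, 46.6, 54.5, 122 and 143 CPM at 7 d (5.18 ± 0.42, adjusted p = 2.81e-08). The 7 d replicates 2 and 3 were the lowest of the cultured libraries for Sqle. Ebp, a sterol isomerase, was the member not called (0.20 ± 0.15).

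More lysosomal genes were higher than lower, and nearly all subunits of the proton pump rose. All genes tested were 34.8% higher and 35.7% lower. Of 17 subunits and accessory proteins of the V-ATPase, the pump that acidifies lysosomes, 16 were higher and none lower (median log2 1.73). Atp6v1a, the catalytic subunit, was at 58.0, 82.2, 60.3, 65.2 and 52.2 CPM ex vivo and 1242, 741, 811, 1067 and 1223 CPM at 7 d, a log2 rise of 4.00 ± 0.18 (adjusted p = 9.69e-12). Atp6v0d1, the widely expressed counterpart of Atp6v0d2, rose from 80.5 ± 7.62 to 227 ± 24.5 CPM. Tcirg1 was not called (-0.23 ± 0.20), but was called lower with filtered TPM (-0.50). Of 16 cathepsins and cystatins 9 were higher and 6 lower. Ctsb rose from 2242 ± 79.3 to 23862 ± 3289 CPM, Ctsd from 8658 ± 958 to 30070 ± 4799 and Ctsl from 385 ± 91.7 to 2032 ± 219, whereas Ctss, the cathepsin that trims the invariant chain, was not called (-0.10 ± 0.20). Of 32 lysosomal hydrolases and membrane proteins 20 were higher and 7 lower (median log2 0.60). Hexa (1.29 ± 0.16) and Lamp1 (1.63 ± 0.13) rose, and Naglu and Idua, which degrade heparan and other glycosaminoglycans, were not called (-0.36 ± 0.19 and -0.13 ± 0.11). Naglu was called lower without 7 d replicate 3 (-0.58), by DESeq2 (-0.43) and with TPM (-0.65), and Idua with TPM (-0.36).

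Most cytoskeletal genes were higher, beside 34.8% of all genes higher and 35.7% lower. Of 25 actin and adhesion genes 22 were higher and 2 lower (median log2 3.22). Vim, the intermediate filament vimentin, was at 3.34, 7.63, 8.43, 1.72 and 6.67 CPM ex vivo and 1212, 1145, 898, 1232 and 1118 CPM at 7 d (7.64 ± 0.43, adjusted p = 2.56e-10). The actin crosslinker Flna rose from 214 ± 51.2 to 1991 ± 177 CPM and Actn1 from 41.4 ± 5.10 to 262 ± 22.1. Fscn1, the actin-bundling protein of thin cell processes, was among the 2 that fell (836 ± 143 to 82.1 ± 24.0 CPM). Zyx, zyxin, was not called (0.08 ± 0.16). Of 22 integrins and adhesion proteins 12 were higher and 10 lower. Among 16 metalloproteinases and inhibitors 6 were higher and 4 lower. Both of these lists, unlike the cytoskeletal one, were mixed, as were all genes tested (34.8% higher, 35.7% lower). The membrane protease Mmp14 and the inhibitor Timp2 were not called (-0.26 ± 0.21 and -0.09 ± 0.15), though both were called lower with filtered TPM (-0.48 and -0.33).

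Genes of DNA replication and mitosis were higher at 7 d, but the cultured libraries were far from alike. All genes tested were 34.8% higher and 35.7% lower. Of 28 replication genes 25 were higher (median log2 2.29), of 25 mitosis genes 22 (2.88), and none was lower in either list. Top2a was at 1.39, 2.31, 5.04, 5.66 and 3.95 CPM ex vivo and 22.8, 154, 52.6, 45.2 and 6.02 CPM at 7 d (3.94 ± 0.71, adjusted p = 1.52e-04). Cdk1, the kinase that starts mitosis, was at 1.94 to 2.69 CPM ex vivo and 5.52, 38.4, 16.1, 12.6 and 0.299 CPM at 7 d. Replicate 2 was highest and replicate 5 lowest of the cultured libraries for both, and for Cdk1 replicate 5 lay below every ex vivo library. The mean log2(CPM + 1) of the mitosis list was 2.62, 4.84, 3.61, 3.33 and 1.46 at 7 d and 1.17 to 1.73 ex vivo. Without 7 d replicates 2 and 3, 19 mitosis genes and 21 replication genes were still called higher, with medians of 1.72 and 1.39, but Cdk1 and the helicase subunit Mcm3 were not, and both also lost their call with TPM and a pseudocount of 1 (1.33 and 0.45). Rrm2, a subunit of ribonucleotide reductase (4.37 ± 0.78), the sliding clamp Pcna (1.68 ± 0.40) and cyclin B1 gene Ccnb1 (4.01 ± 0.77) rose, while Mcm7, Tyms, Cenpf and Kif20a were not called over all libraries (0.92 ± 0.41, 0.51 ± 0.51, 1.18 ± 0.56 and 0.83 ± 0.37), and Mcm7, Cenpf and Kif20a were called higher without 7 d replicate 5 or 1. At 24 h the mitosis genes were lower than at 7 d in 24 of 25 cases (median log2 of 7 d against 24 h 3.89), and Top2a stood at 0.399 ± 0.132 CPM there.

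Cell-cycle brakes moved in both directions, beside 34.8% of all genes higher and 35.7% lower. Of 17 tested 9 were higher and 5 lower. Cdkn1a, the inhibitor p21, was at 42.7, 11.3, 12.9, 22.1 and 21.7 CPM ex vivo and 612, 523, 448, 742 and 825 CPM at 7 d (4.83 ± 0.34, adjusted p = 4.07e-09). Its order among the cultured libraries was nearly the reverse of that of Top2a: replicate 5, lowest for Top2a, was highest for Cdkn1a. Cdkn2c, the inhibitor p18, rose with overlapping libraries (2.05 ± 0.50) and lost its call with TPM (0.82 to 0.92). Btg2, an antiproliferative gene that is also an immediate-early gene, fell from 1254 ± 1007 to 31.3 ± 7.92 CPM.

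**Figure D4:**
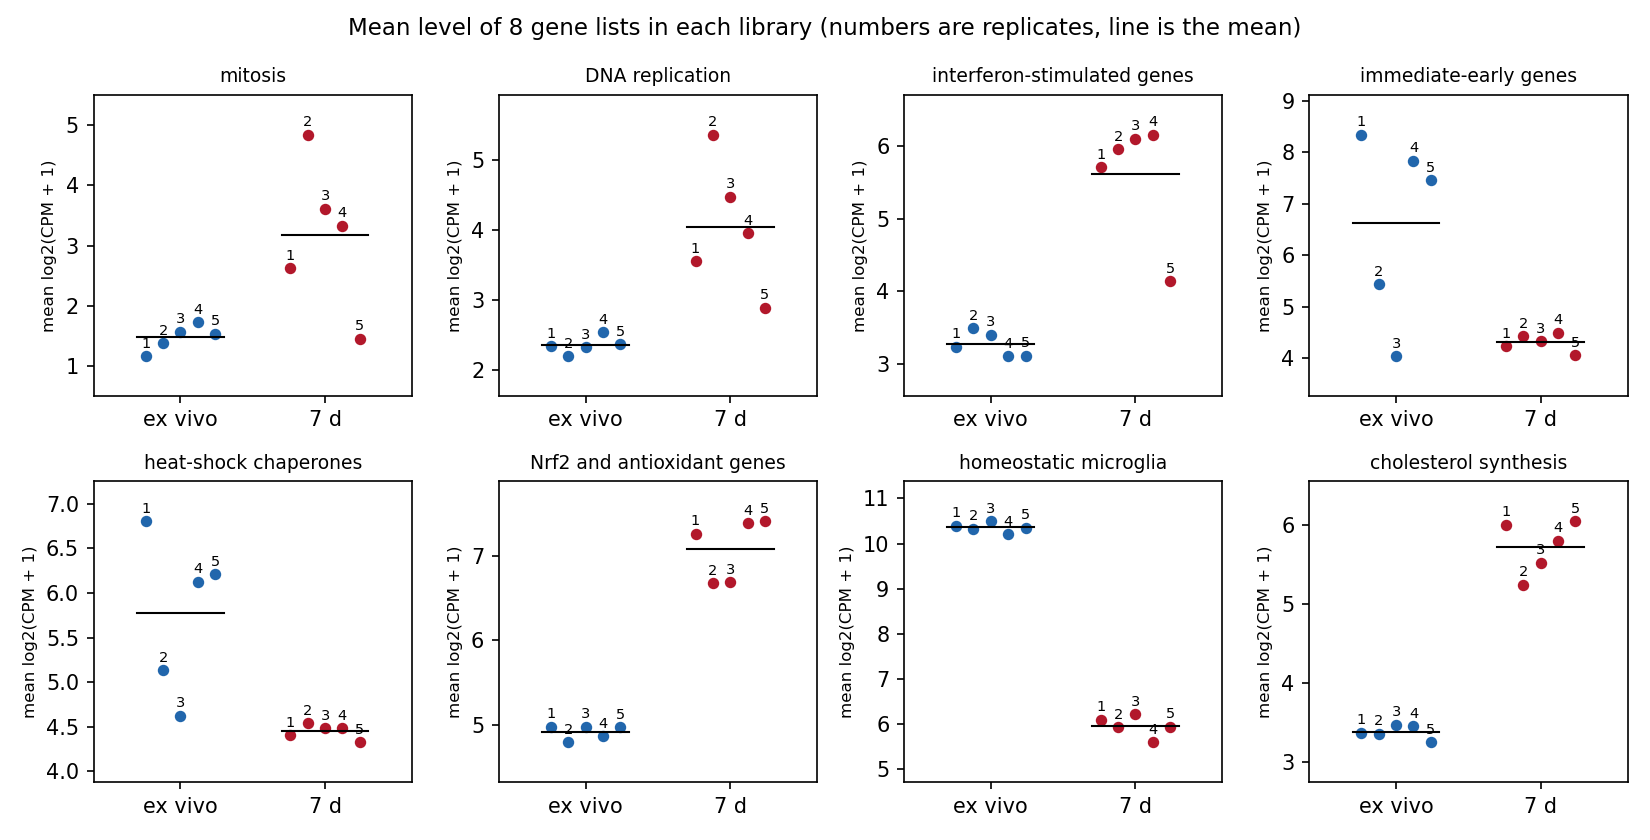
Mean log2(CPM + 1) over the tested members of 8 gene lists in each library, ex vivo in blue and 7 d in red; numbers are replicates and lines are group means. Homeostatic, Nrf2 and cholesterol lists separate all libraries of the groups. The mitosis list ranges from 1.46 to 4.84 at 7 d, the interferon list is lowest in 7 d replicate 5 (4.14), and the immediate-early list ranges from 4.05 to 8.34 ex vivo.

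Interferon-stimulated genes were higher in 4 of the 5 cultured libraries by a wide margin and in the remaining one by less. Of 24 genes 21 were higher and none lower (median log2 2.99), beside 34.8% of all genes higher and 35.7% lower. Irf7, the transcription factor that amplifies interferon production, was at 5.30 to 8.44 CPM ex vivo and 54.8, 150, 194, 104 and 17.2 CPM at 7 d (3.83 ± 0.74, adjusted p = 2.96e-04). Ifit3 was at 3.57 to 4.397 CPM ex vivo and 39.4, 26.1, 37.3, 53.9 and 6.15 CPM at 7 d (2.99 ± 0.75), and Oasl2 at 5.20 to 9.25 against 147, 255, 287, 199 and 36.6 CPM (4.80 ± 0.86). Oas3 was at 0.232 to 1.65 CPM ex vivo and at 39.5, 60.8, 60.4, 68.7 and 1.41 CPM at 7 d, so replicate 5 lay within the ex vivo range for this gene. Mx1 and Mx2 were not called (1.02 ± 0.66 and 0.28 ± 0.52). The 24 h libraries were uneven as well, with Irf7 at 74.2 ± 93.1 CPM, and 4 of 24 genes were higher at 7 d than at 24 h.

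Immediate-early genes, which respond within minutes to stimulation, were lower at 7 d than in most ex vivo libraries. Of 24 tested 19 were lower and 1 higher (median log2 -3.60), beside 35.7% of all genes lower and 34.8% higher. Egr1 was at 9251, 670, 20.3, 7590 and 4274 CPM ex vivo and 32.9, 101, 96.4, 60.5 and 53.4 CPM at 7 d (-5.99 ± 1.06, adjusted p = 1.34e-04). Fos was at 5327, 534, 23.2, 2025 and 1952 CPM ex vivo and 52.7 to 129 at 7 d (-4.58 ± 0.90), and Jun at 9133, 1067, 260, 4882 and 3777 CPM against 176 to 338 (-3.96 ± 0.67). Ex vivo replicate 3 lay below the cultured range for Fos and Egr1 and within it for Jun, and replicate 2 came next. In 6 of the 24 genes all cultured libraries were below all ex vivo ones, a share close to the 26.1% of all genes. The list's mean log2(CPM + 1) was 8.34, 5.44, 4.05, 7.84 and 7.46 ex vivo and 4.06 to 4.50 at 7 d. The member that rose was Fosl1 (0.528 ± 0.272 to 1.597 ± 1.12 CPM), which was far higher at 24 h (64.0 ± 10.6 CPM). Heat-shock chaperones ranked the ex vivo libraries nearly alike, with list means of 6.81, 5.13, 4.62, 6.13 and 6.21 ex vivo and 4.33 to 4.54 at 7 d, and 8 of 15 were lower. Hsph1 was called over all libraries (-0.70 ± 0.30, adjusted p = 0.0465) but not without ex vivo replicate 1 (-0.32) or 5 (-0.64) or any 1 of the 7 d replicates (-0.65 to -0.75). The 2 that rose were the mitochondrial chaperones Hspd1 (1.09 ± 0.19) and Hspe1 (1.10 ± 0.23).

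Most genes of the Nrf2 and antioxidant list were higher than ex vivo but lower than at 24 h. Control of these genes by Nrf2 was not tested. All genes tested were 34.8% higher and 35.7% lower than ex vivo. Of 22 tested 21 were higher than ex vivo and none lower (median log2 2.31), and 17 were lower at 7 d than at 24 h and 2 higher (median log2 -1.36, where 21.6% of all genes were lower). Hmox1, heme oxygenase, was at 75.3, 27.8, 29.8, 58.0 and 104 CPM ex vivo and 1305, 890, 811, 1044 and 1198 CPM at 7 d (4.15 ± 0.34, adjusted p = 1.77e-08), with 4567 ± 1152 CPM at 24 h. Gclm, a subunit of the enzyme that starts glutathione synthesis, was at 13.2 ± 2.03 CPM ex vivo, 897 ± 106 at 24 h and 188, 56.6, 63.1, 220 and 263 CPM at 7 d. The 7 d replicates 2 and 3 were again the lowest of the cultured libraries. Nqo1 rose from a low level (0.155 ± 0.213 to 1.00 ± 0.554 CPM), and Gclc was not called (0.31 ± 0.17) but was called higher without 7 d replicate 2 (0.42) or 3 (0.39).

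Nearly all listed genes of mitochondrial energy metabolism rose, by amounts that varied, beside 34.8% of all genes higher and 35.7% lower. Of 25 genes of the respiratory chain and citric acid cycle 24 were higher and none lower (median log2 1.08, range -0.17 to 3.01). Cs, citrate synthase, was at 89.3, 93.4, 91.4, 107 and 105 CPM ex vivo and 209, 204, 202, 211 and 205 CPM at 7 d, a 2.13-fold rise (adjusted p = 3.54e-09). Sdha rose 1.72-fold and Uqcrc1 2.11-fold. Dlst was not called (-0.17 ± 0.10), but was called lower with upper-quartile scaling (-0.25), with TPM (-0.38) and by DESeq2 (-0.23). In the integrated stress response list, which holds targets of ATF4, 11 of 18 were higher and 2 lower. Asns, asparagine synthetase, rose from 0.806 ± 0.297 to 27.2 ± 14.4 CPM, Trib3 from 0.327 ± 0.468 to 10.9 ± 6.16 and Chac1 from 0.0801 ± 0.0609 to 1.29 ± 0.651, while Atf4 itself was not called (-0.52 ± 0.27) except lower without ex vivo replicate 2 (-0.66) or 3 (-0.71). The 2 that fell were Ddit4, an inhibitor of mTORC1 (57.9 ± 66.6 to 2.35 ± 0.352 CPM), and Phgdh (19.4 ± 9.29 to 8.47 ± 5.33 CPM), the latter not called without ex vivo replicate 4 or 7 d replicate 1 (-0.89 and -1.08).

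Transcription factors and genes of the TGFβ pathway moved in both directions, as did all genes tested (34.8% higher, 35.7% lower). Of 27 macrophage transcription factors 8 were higher and 8 lower. Pparg, a lipid-activated nuclear receptor, rose from 0.0690 ± 0.122 to 10.6 ± 3.78 CPM (6.93 ± 0.59) and Bhlhe40 from 1.15 ± 0.396 to 19.3 ± 6.48 CPM. Irf8 fell from 583 ± 62.7 to 312 ± 29.6 CPM, whereas Mef2c was at 568 ± 119 and 548 ± 90.6 CPM and Maf at 741 ± 227 and 695 ± 92.1 CPM, neither called. Of 18 TGFβ pathway genes 5 were higher and 8 lower (median log2 -0.15). The ligand Tgfb1 (-0.28 ± 0.11) and the receptor Tgfbr2 (-0.35 ± 0.12) fell slightly, Tgfb1 without a call when ex vivo replicate 5 or any 1 of 7 d replicates 1 to 4 was left out (-0.22 to -0.28). The signal transducer Smad3 fell from 276 ± 42.6 to 69.6 ± 10.3 CPM and Pmepa1, a known target of the pathway, from 581 ± 45.1 to 69.0 ± 37.9 CPM. Nrros, which presents latent TGFβ on microglia, was not called (-0.07 ± 0.14).

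Most clock genes were lower, beside 35.7% of all genes lower and 34.8% higher. Of 16 clock genes 10 were lower and 2 higher (median log2 -1.43). Per1 was at 239, 104, 53.1, 135 and 381 CPM ex vivo and 82.5, 49.3, 58.0, 76.1 and 73.1 CPM at 7 d, so the groups overlapped (-1.43 ± 0.37). Dbp (-1.43 ± 0.28) and Nr1d1 (-1.67 ± 0.44) fell too, and both of these varied among the ex vivo libraries, Nr1d1 from 4.32 to 22.96 CPM. The time of day of sampling is not given in the labels used here. The 2 that rose, Bhlhe40 and Nfil3 (2.47 ± 0.24), are repressors, and the core activator Arntl was not called (0.23 ± 0.18).

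The remaining lists were mixed, as were all genes tested (34.8% higher, 35.7% lower). Of 14 iron-handling genes 8 were higher and 5 lower, of 18 nuclear receptors 5 and 10, of 22 amino acid and sugar transporters 7 and 11, of 22 ion channels 9 and 9, of 16 genes of an osteoclast-like programme 9 and 5, and of 23 mouse orthologs of neurodegeneration risk genes 6 and 12. Apoe, the apolipoprotein of the last list, was at 198, 113, 420, 64.8 and 107 CPM ex vivo and 780, 289, 870, 266 and 1064 CPM at 7 d (1.86 ± 0.51, adjusted p = 0.00430), and at 13.3 ± 1.49 CPM at 24 h.

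Chromatin profiles of the same 2 conditions were deposited as peak lists, 1 per condition, each called on pooled libraries, so they allow no test. Of the 2 ATAC libraries pooled for 7 d, replicate 2 is labelled 8 d. The lists are of unequal length, with 90674 ATAC peaks ex vivo and 112977 at 7 d, and 24520 and 31349 H3K27ac peaks. A gene was taken to hold a peak if one overlapped its body or 1 kb on either side, which could be decided for 13792 of the tested genes. H3K27ac, a histone mark of active promoters and enhancers, was present at 7 d only in 7.14% of the genes higher in RNA, in 2.78% of those lower and in 4.43% of those not called. The mark was present ex vivo only in 9.32% of the genes lower, 2.48% of those higher and 5.83% of those not called. Among genes that rose at least 8-fold, 195 of 604 (32.3%) had the mark at 7 d only, beside 4.79% of all genes. Among those that fell at least 8-fold 183 of 913 (20.0%) had it ex vivo only, beside 5.91% of all genes. In the opposite direction, 2.81% of the genes that rose at least 8-fold had the mark ex vivo only. Of those that fell at least 8-fold 6.57% had it at 7 d only, more than the 4.79% of all genes. Accessible chromatin (ATAC) was present in both conditions at 92.1% of all genes. It was found at 7 d only in 5.79% of the genes that rose at least 8-fold and in 1.91% of all genes, and ex vivo only in 4.71% of those that fell at least 8-fold and 1.09% of all. For the genes that fell at least 8-fold, however, the share with accessible chromatin at 7 d only was nearly as large (4.38%). Over every gene called higher, whatever the fold, the share at 7 d only was smaller than the 1.91% of all genes. It was also smaller there than among genes called lower and among genes not called. Over every gene called lower, the share ex vivo only was larger than the 1.09% of all genes.

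**Figure D5:**
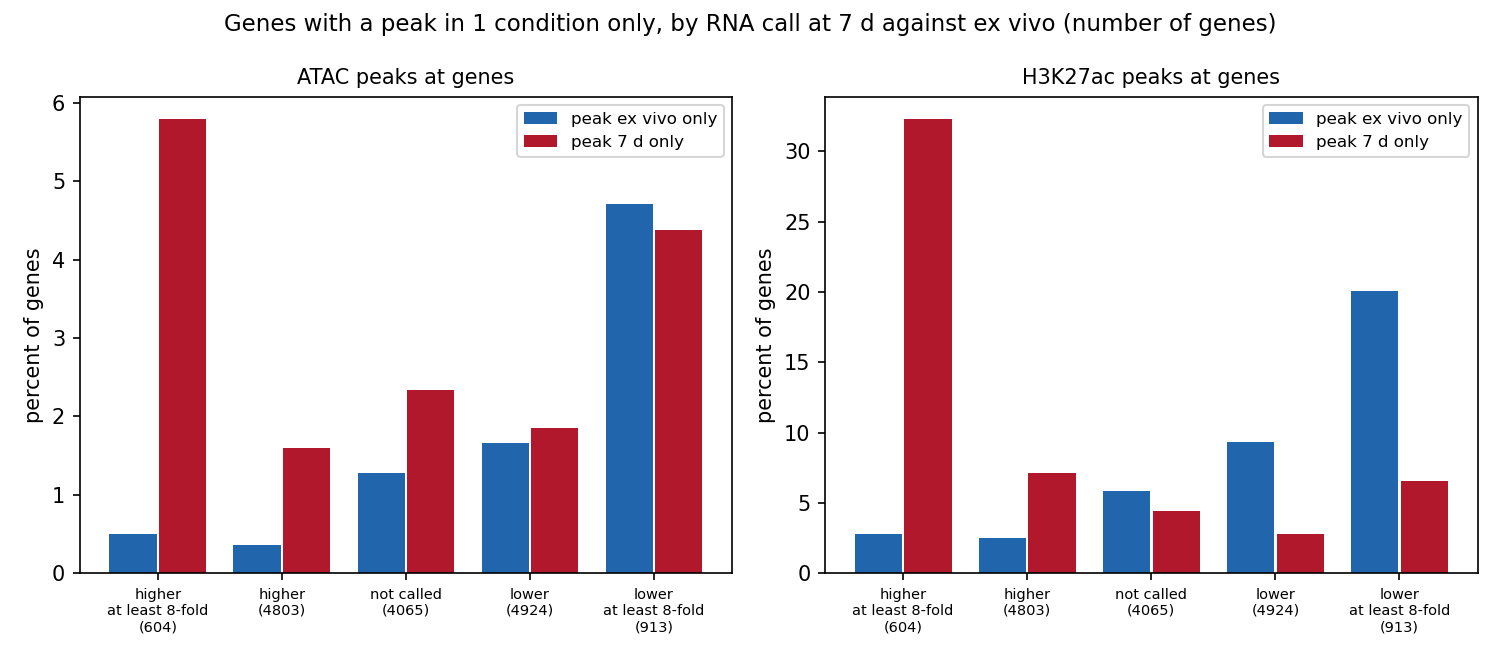
Percent of genes with a peak in 1 condition only, ATAC on the left and H3K27ac on the right, for genes grouped by their RNA call at 7 d against ex vivo; the number of genes is in brackets and both axes start at 0. The bar for H3K27ac at 7 d only is highest (32.3%) for genes that rose at least 8-fold, and that for H3K27ac ex vivo only (20.0%) for genes that fell at least 8-fold.

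In single genes the promoter peaks could be placed directly. In the 300-base window from 250 bases before to 50 after the start, the Emp1 promoter shown and that of Oas3 held ATAC and H3K27ac peaks at 7 d only, the other Emp1 promoter held none and no match to TGANTCA, and Crybb1 held both ex vivo only. Gpnmb, Mmp12, Mmp13, Lgals3 and Adam8 held an ATAC peak in both conditions and an H3K27ac peak at 7 d only. Siglech held an ATAC peak in both and an H3K27ac peak ex vivo only. Clec4d held both kinds of peak at 7 d only. Igf1 held only an H3K27ac peak at 7 d, and Slc2a5 only an H3K27ac peak ex vivo. By contrast, Flrt2, which rose, held an ATAC peak ex vivo only and no H3K27ac peak. Hspa1a and Hspa1b, which fell, held an ATAC peak at 7 d only and H3K27ac peaks in both conditions. Slc1a2 held no peak. Atp6v0d2, Upk1b, Ttr, Enpp2 and Tspan18 had no promoter in the table. Lamp1 held all 4 peaks, and Top2a both ATAC peaks and the H3K27ac peak at 7 d.

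Of 25 mitosis genes 20 matched a RefSeq promoter, and 15 of these 20 (75.0%) held TTTGAA in the window on either strand. The share was 14.4% of the tested genes matched to a promoter and 20.2% of all promoters in the table. The matched genes are 77.8% of those tested, so this base does not stand for all tested genes. CCAAT was present in 17 of the 20 (85.0%), beside 43.0% of the matched tested genes. Only 16 of 24 interferon-stimulated genes and 25 of 32 genes of the lysosomal hydrolase list matched a promoter. That is under 80%, so a share of promoters with TTCNNTTTC or CACGTG is void for these lists, and Oas3 and Lamp1 are single examples. These are matches of letters and do not show that a factor binds.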

How the data were processed

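Poly(A) RNA of sorted microglia had been sequenced, and the authors deposited whole-number counts per gene symbol and TPM (length-scaled transcript abundance) for each library, per the file headers. The TPM table, which its authors call trimmed, does not hold each library's full total. The submitters' processing notes name STAR, Bowtie2, HOMER, R 3.3.1 and mm10, and give no version for the others. Peak lists of ATAC and H3K27ac were called by HOMER on pooled libraries, 1 per condition, per the file headers.

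The count model was edgeR 4.0.16 under R 4.3.3 (TMM scaling, filterByExpr, robust quasi-likelihood F test), applied to the 17 microglial RNA libraries in 1 model of group means, and p-values were adjusted by Benjamini-Hochberg over the 13840 genes tested, with a threshold of 0.05. Standard errors (SE) are the absolute log2 fold change over the root of its F statistic. CPM used TMM-scaled library sizes, and ± after CPM is the SD over libraries. The fits were also run on simulated counts in which few genes differed, equally up and down. In the data 70.5% of genes were called, so that run cannot check the fits in this setting. Alternatives were DESeq2 1.42.0, limma 3.58.1 on log2 of TPM plus 1 or 0.1, other scalings and filters, a replicate block, and leaving libraries out. Peaks were overlapped with RefSeq genes by bedtools 2.31.1 (at least 1 bp). Replicates were compared and none was a duplicate of another.

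Members and gene lists were chosen with earlier results of these data known. Genes named are the first 3 members of each list, the 10 largest called rises and falls (mean of the higher group 20 CPM or more, libraries not overlapping) leaving out unnamed gene models, the first 2 members not called, and members that moved against the majority where 5 or fewer did. Oas3, Rgs10, Tlr9, Tlr12, Il1a, Clec7a, Gas6, Plin2, Abcg1, Mylip and Pmepa1 were chosen after their values were seen. Every column of per-sample values in the tables was mapped to a sample. Gapdh and Pgk1 are not interpreted here. A few genes that this rule names are not reported here.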

Additional observations from a re-analysis of the deposited data

Results flagged for a closer look

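In 21 of 378 groups of 5 libraries examined (a named gene or a list in 1 condition), the highest or lowest library stood apart from the other 4 by Dixon's test. Chance alone is expected to give about 1 in 20, so the number as a whole is near what chance gives. Of these, 15 were ex vivo and 6 at 7 d.

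At 7 d, replicate 5 was low for the interferon-stimulated list (mean log2(CPM + 1) of 4.14, others 5.72 to 6.16) and for Fcgr1 (77.0 CPM, others 168 to 196), and high for Tgfb1 (471 CPM, others 396 to 417). Replicate 1 was high for Pmepa1 (136 CPM, others 46.2 to 61.6). Replicate 3 was high for Crybb1 (1.11 CPM, others 0.158 to 0.343) and replicate 4 for Fosl1 (3.52 CPM, others 0.743 to 1.51).

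Ex vivo, replicate 3 was high for Slc1a2 (109 CPM, others 0.445 to 20.3), Cd74 (128 CPM, others 18.6 to 34.6), Scd1 (8.99 CPM, others 0.0928 to 1.56), Nqo1 (0.524 CPM, others at most 0.143) and Pparg (0.282 CPM, others at most 0.0625). This library also held the highest astrocyte and choroid plexus marker sums of the 5 (Slc1a2 is itself among the astrocyte markers). Its border macrophage, B cell, and dendritic and mast cell sums were the highest as well. The part of such cells was not tested. Replicate 2 was high for Tlr4 (284 CPM, others 133 to 175), Marco (2.50 CPM, others at most 0.0556) and Atp6v0d2 (0.188 CPM, others at most 0.0403), and low for Uqcrc1 (44.8 CPM, others 71.8 to 73.7). Replicate 4 was low for Spp1 (0.931 CPM, others 3.11 to 3.63), Fcgr3 (549 CPM, others 780 to 851) and Gclm (9.67 CPM, others 13.5 to 14.8), and high for Trib3 (1.15 CPM, others at most 0.242). Replicate 5 was high for Pnpla2 (161 CPM, others 77.7 to 90.5) and Ddit4 (174 CPM, others 9.10 to 51.5).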

How the results depend on the processing

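No called gene named here changed sign under the alternatives run. The majority of calls and some list medians did turn. At 7 d against 24 h, total-count scaling gave 3189 higher and 3559 lower, where TMM gave more higher than lower. The median of the purinergic list moved from -0.63 to between -0.91 and 0.39, and that of the chemoattractant receptors from -0.44 to between -0.9992 and 0.59. The medians of 7 other lists also changed sign: chemokine ligands (0.31, range -0.07 to 0.95), cytokines, macrophage transcription factors, Fc receptors and ITAM signalling, metalloproteinases, ion channels and sex-linked transcripts. Of 152 named genes, 123 kept their direction and their side of the threshold in every alternative, and 29 changed side in at least 1 of 23 settings. Leaving out 1 library at a time gave 4597 to 4840 genes higher and 4729 to 4910 lower at 7 d than ex vivo, and 2914 to 3835 higher and 2444 to 2932 lower at 7 d than at 24 h. Without 7 d replicates 2 and 3 the counts were 4425 and 4792, and without ex vivo replicates 2 and 3, an alternative chosen after seeing the data, 4781 and 4730. DESeq2 gave 4657 and 5218. Requiring at least a 2-fold change gave 2749 and 3132 against ex vivo and 2276 and 1248 against 24 h, fewer because the criterion is stricter. Other scalings of the counts shifted the split against ex vivo towards lower calls, to 4577 and 5202 (RLE), 4505 and 5180 (total counts) and 4436 and 5324 (upper quartile). TPM shifted it further: 3905 and 5736 with a pseudocount of 1, 3932 and 5798 with 0.1 and 3886 and 6112 without a filter, and against 24 h 2733 and 3957, 2847 and 4035, and 2614 and 3957. The cause was not tested.

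Same-numbered libraries deviated together weakly or not at all (r = -0.08 to 0.24 across genes for 7 d with ex vivo). Of these, 1 of 5 correlated best with its own number. Weak correlation does not show that such libraries had separate origins, and the labels name no pairs. The main model did not pair them. With the replicate block, 4825 genes were higher and 4933 lower against ex vivo, and 3857 and 2928 against 24 h.

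Peak shares depended on the window. With 10 kb either side of the gene body, 1.02% of genes higher had ATAC at 7 d only and 6.31% H3K27ac, and 0.690% of genes lower had ATAC ex vivo only and 6.32% H3K27ac. The same shares over all genes were 1.28%, 4.60%, 0.508% and 4.03%. A 300-base promoter window, added after seeing the data, covers 77.8% of tested genes. There the called genes gave 4.38%, 5.97%, 4.44% and 13.1%, and all matched genes 3.99%, 3.07%, 3.14% and 8.79%.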
